A study of Homo sapiens with 4 samples.

Results

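The receptors for insulin-like growth factors (IGF1R and IGF2R) and the 7 IGF-binding proteins (IGFBP1 to IGFBP7) were described on 4 human arrays. The members were taken by gene name from the spots that are not controls, which gave 9 genes with 1 probe each and 27 spots, of 27193 genes, 34127 probes and 43118 spots on each array. All 4 arrays hybridized RNA of MCF10A.B2, a derivative of the mammary epithelial cell line MCF10A that carries a chimeric ErbB2 (Her2) receptor, which the dimerizer AP1510 switches on. There were 2 control samples, labelled as PAK1 wild type, and 2 samples of MCF10A.B2 cells stably carrying a tetracycline-inducible shRNA against PAK1, a p21-activated protein kinase. Every sample was grown in 5% horse serum, starved of serum for 3 h and given AP1510 for 15 min, so the control cells carry the activated chimera too. Whether the shRNA cells are 1 clone or a pool, how the shRNA was induced and whether the control cells hold a vector or a non-targeting shRNA are not given in the sources used here. The series description speaks of cells from tumors, but the line is what the sample labels and the methods name. Insulin was an ingredient of the maintenance medium, and whether it remained during starvation is not stated.

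IGF1R is a receptor tyrosine kinase that binds IGF1 and IGF2 and passes the signal on through IRS and SHC adaptors to PI3K, AKT and ERK. IGF2R, also known as the cation-independent mannose 6-phosphate receptor, has no kinase, carries IGF2 to lysosomes and sorts lysosomal enzymes. The binding proteins are secreted, hold IGFs in the extracellular space and can either block or prolong their action, and in the mammary gland IGFs promote growth and survival while IGFBP5 is best known from involution.

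The probe decides which transcript end each value reads. The opening 30 of 60 bases are printed for the 5 members whose difference passed the test under all planned settings that measured them. Of these, IGFBP5 passed the filter on dim probes through the control arrays only, so its passing the test carries no weight of its own. Bases run 5′ to 3′ as the scanner files give them, and none is singled out by capitals.
IGF2R: gccttaatttgcacagtgtgtgacttacag
IGFBP2: ggagggggaagagaaatttttatttttgaa
IGFBP5: ccacagtacatattactgtagttctctata
IGFBP6: tgctgcagcaactccagactgaggtctacc
IGFBP7: acctccagaatattattagtctgcatggtt
On hg19 the whole probes lie at chr6:160527114-160527173 (plus strand) for IGF2R, chr2:217529086-217529145 (plus) for IGFBP2, chr2:217537167-217537226 (minus) for IGFBP5, chr12:53494853-53494912 (plus) for IGFBP6 and chr4:57897423-57897482 (minus) for IGFBP7. The others lie at chr15:99507366-99507425 (plus) for IGF1R, chr7:45932966-45933025 (plus) for IGFBP1, chr7:45952608-45952667 (minus) for IGFBP3 and chr17:38613308-38613367 (plus) for IGFBP4. The exon or UTR under each probe was not looked up, since no hg19 annotation was used here. Among the 36 pairs of member probes, 0 share a run of 10 bases. The probes were not compared with the transcripts of the other members, so cross-reading between members was not tested. IGFBP2 and IGFBP5 stand next to each other on chromosome 2 on opposite strands with 8021 bases between their probes, and IGFBP1 and IGFBP3 likewise on chromosome 7 with 19582 bases between theirs.

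Signals were background corrected and quantile normalized, and a value below is a normalized log2 intensity unless it is called a scanned signal. The share of probes well above background lay between 78.9% and 83.2% on the 4 arrays, all on 1 slide. PAK1 itself, the target of the shRNA, had values of 11.19 and 11.27 in control cells and of 10.44 and 10.52 with the shRNA. The 2 groups did not overlap. The fitted difference, as a log2 fold change (PAK1 shRNA minus control, here and below), was -0.75 (SE 0.08, limma, Benjamini-Hochberg adjusted p = 0.00019), which leaves 59.5% of the PAK1 signal of control cells, but 0.16 under median centring with the background fitted on all spots. The 10 markers of basal mammary epithelium were well above background on all 4 arrays, with a summed level of 18.9 and 18.8 in control and 18.8 and 18.7 in PAK1 shRNA cells over the 9 with a value on every array. Of these 10 markers, 4 were higher and 4 lower in PAK1 shRNA cells, where 30.9% of all genes tested were higher and 31.7% lower. At least 2-fold changes were seen for LAMB3, a laminin chain (log2 fold change 1.26, without a value on 1 PAK1 shRNA array), for TP63, a basal transcription factor (-1.13), and for the basal keratin KRT5 (-1.14, but 0.12 under median centring with the background fitted on all spots). Of 10 markers of leukocytes, endothelium, stroma, hormone receptor positive epithelium and liver, 7 were well above background on all arrays and COL3A1 and PGR on none, all 10 between 6.04 and 9.50, with a summed level of 11.0 and 10.9 in control and 11.0 and 11.1 in PAK1 shRNA cells. PECAM1, an endothelial marker among them, had a log2 fold change of -1.56, and 3 of the 8 tested markers of this list were higher and 2 lower, 62.5% called as among all genes. The part of these markers in the results was not tested. In such bulk RNA, fewer cells with a transcript and less of it per cell cannot be told apart. The labels do not say how the 2 samples of a group were obtained, so p-values measure the spread between these samples, which may be technical.

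The members moved in both directions. IGFBP6 (10.4-fold) and IGFBP7 (3.49-fold) had the largest rises, IGF2R and IGFBP4 rose less, IGFBP5 fell to background and IGFBP2 to 48.6% of control, IGF1R and IGFBP3 were slightly lower, and IGFBP1 was near background in both groups. With limma and a Benjamini-Hochberg adjusted p under 0.05, 8 members were tested, 4 were higher and 4 lower, where 30.9% of all 21990 genes tested were higher and 31.7% lower (62.5% called in all). Of these 8, IGF1R, IGFBP2, IGFBP3 and IGFBP4 took the opposite sign under 1 setting, median centring with the background fitted on all spots. IGFBP5 was tested only because the control arrays measured it, so the count over tested members carries no weight of its own. Changes of at least 2-fold were seen for 2 members upwards and 2 downwards, against 8.87% and 8.94% of all genes. The 2 groups of arrays did not overlap for any of the 8 tested members, nor for 81.7% of all genes with a value on each array. Over the 8 members the log2 fold change had a median of 0.17, and over all genes of 0.02. A two-sided exact permutation test over 4 arrays could reach no less than p = 0.333 for any member.

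**Figure D1:**
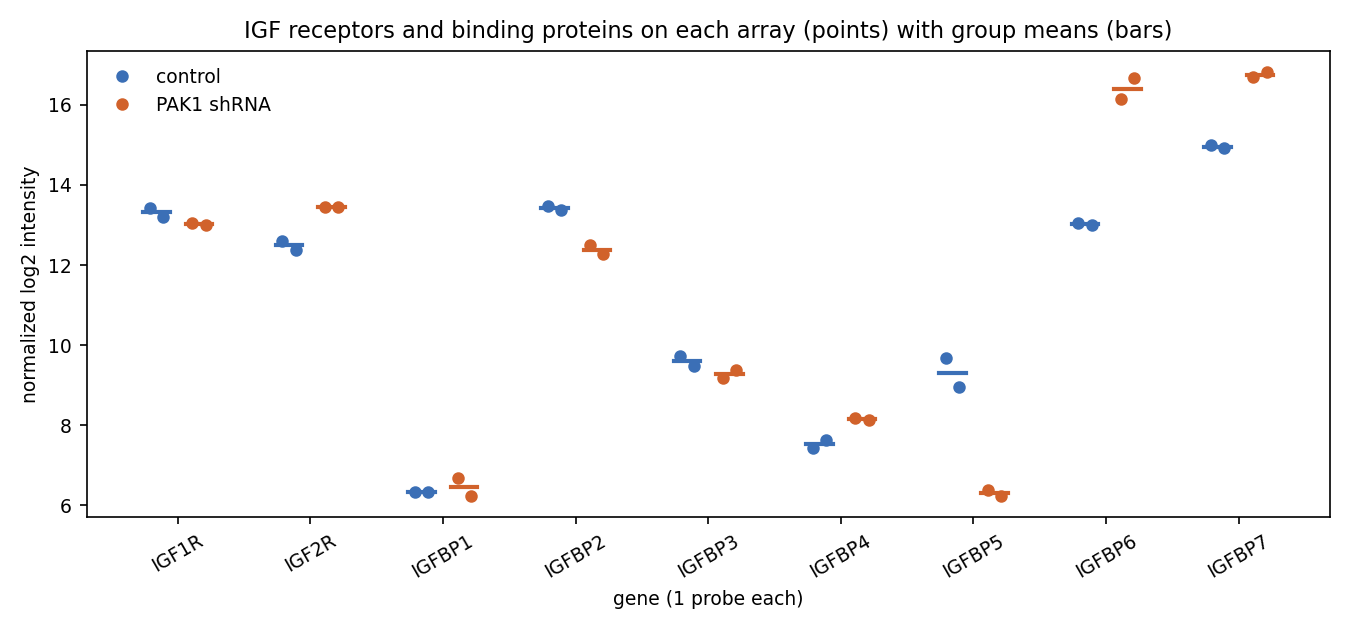
Normalized log2 intensity (vertical axis) of each IGF receptor and binding protein on the 2 control arrays (blue points) and the 2 PAK1 shRNA arrays (orange points), with bars at the group means. The gap between groups is widest for IGFBP6, upwards, and for IGFBP5, which drops to background, and IGFBP1 lies near background in both groups. Heights compare groups within a gene, not genes with each other, and IGF1R, IGFBP2, IGFBP3 and IGFBP4 changed order under median centring with the background fitted on all spots.

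Among the receptors, IGF2R rose and IGF1R was slightly lower. IGF2R had values of 12.60 and 12.38 in control and 13.44 and 13.45 in PAK1 shRNA cells, so that the groups did not overlap. The means were 12.49 ± 0.15 (SD, n = 2) and 13.45 ± 0.0028 (SD, n = 2), a log2 fold change of 0.96 (SE 0.09, limma adjusted p = 0.00016) or 1.94-fold. Scanned signals were less apart, at 8207 and 5613 against 9548 and 9557, on arrays whose median signal was 501 and 384 in control and 326 and 319 in PAK1 shRNA cells. Quantile normalization puts the 4 arrays on the same scale, and with median centring after the background fit on all spots the log2 fold change of IGF2R was 2.10.

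IGF1R, the signalling receptor, had 13.43 and 13.20 in control and 13.06 and 13.01 in PAK1 shRNA cells. A difference of -0.28 (SE 0.10, 95% interval -0.51 to -0.05, limma adjusted p = 0.042), or 82.5% of control, was just past the threshold. It did not pass in 9 of 18 planned settings, with adjusted p between 0.014 and 0.2 and log2 fold changes between -0.40 and -0.17. Without the first control array the difference was -0.17 (adjusted p = 0.15), without the first PAK1 shRNA array -0.30 (adjusted p = 0.091) and without the other PAK1 shRNA array -0.25 (adjusted p = 0.15). Under median centring with the background fitted on all spots it was 0.91, in the opposite direction.

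Of the binding proteins with high affinity for IGFs, IGFBP6 had the largest rise. IGFBP6, which prefers IGF2 over IGF1, had values of 13.06 and 12.99 in control and 16.14 and 16.66 in PAK1 shRNA cells. Both PAK1 shRNA arrays stood far above both control arrays, and the pair differed from each other by more than the control pair did. Means of 13.02 ± 0.05 (SD, n = 2) and 16.40 ± 0.37 (SD, n = 2) gave a log2 fold change of 3.38 (SE 0.16, limma adjusted p = 8.5e-06), or 10.4-fold. A larger rise was fitted for 180 of 21990 genes, 0.819%. The scanned signals, 11254 and 8601 against 62176 and 90070, showed the rise before any normalization, and no spot was saturated. Leaving out each array in turn gave log2 fold changes between 3.10 and 3.64, and median centring with the background fitted on all spots gave 4.57.

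IGFBP4, an inhibitor of IGF action that the protease PAPPA cuts, was dim in both groups and higher in PAK1 shRNA cells. The values were 7.44 and 7.63 in control and 8.18 and 8.13 in PAK1 shRNA cells. That is a log2 fold change of 0.62 (SE 0.09, limma adjusted p = 0.001), or 1.54-fold, but -0.0895 under median centring with the background fitted on all spots. Scanned signals of 199 and 187 against 245 and 233 had the same order. The call was lost under the methods' t-test with adjustment (adjusted p = 0.057, the range over 18 planned settings being 0.00034 to 0.057).

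IGFBP5, a binding protein that attaches to the extracellular matrix, fell to background. It had 9.68 and 8.95 in control cells and 6.39 and 6.24 in PAK1 shRNA cells, where its spot was not well above background on either. As the PAK1 shRNA values are only a bound, IGFBP5 was at least 7.98-fold lower with the main processing (means 9.31 ± 0.52 and 6.32 ± 0.11, SD, n = 2 each). It passed the filter through the control arrays only, so its adjusted p (4.9e-05, limma) carries no weight of its own. A bound takes, on each array, the higher of the spot's own value and the lowest value well above background. Here the spot's own values were the higher, so the bound was the measured fold. It moved between 3.53-fold with the background fitted on all spots and 37.0-fold with the processed signal scaled to the 75th percentile, and was 5.74-fold without the first control array and 10.1-fold without the other. The control arrays themselves differed in IGFBP5, with scanned signals of 1086 and 497 against 59.3 and 54.5 in PAK1 shRNA cells.

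IGFBP2 and IGFBP3, the major carriers of IGFs in serum, were each read by 10 spots of 1 probe, which shows the error within an array. For IGFBP2 the values were 13.47 and 13.38 in control and 12.49 and 12.28 in PAK1 shRNA cells, a log2 fold change of -1.04 (SE 0.10, limma adjusted p = 0.00012) or 48.6% of control. The median scanned signal of the 10 spots was 15485 and 11563 in control and 4949 and 4277 in PAK1 shRNA cells. Spots of an array varied by 11.1% to 12.8% (coefficient of variation), and the lowest control spot, 8626, lay above the highest PAK1 shRNA spot, 5455. Under median centring with the background fitted on all spots the log2 fold change of IGFBP2 was 0.15.

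IGFBP3 had 9.72 and 9.48 in control and 9.18 and 9.38 in PAK1 shRNA cells, where the nearest arrays of the groups were close to each other. The log2 fold change was -0.33 (SE 0.11, 95% interval -0.60 to -0.05, limma adjusted p = 0.042), or 79.8% of control. Spots varied by only 3.55% to 6.71% within an array, and their medians were 1121 and 751 in control and 483 and 550 in PAK1 shRNA cells, so on the scanned scale arrays of a group differed by more than spots of an array. The call was lost in 9 of 18 planned settings (adjusted p between 0.013 and 0.24), with -0.20 (adjusted p = 0.18) without the first control array and -0.23 (adjusted p = 0.19) without the first PAK1 shRNA array. The sign turned, to 0.13, under median centring with the background fitted on all spots.

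**Figure D2:**
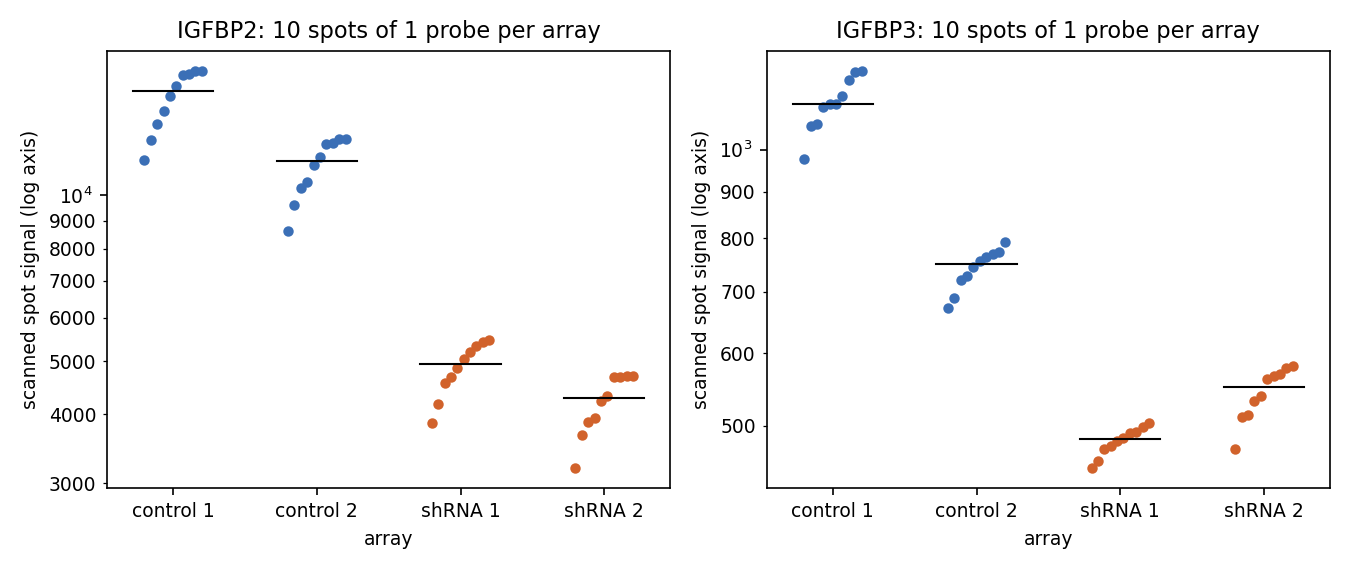
Scanned signal, before normalization and on a log axis, of the 10 spots of the IGFBP2 probe (left) and of the IGFBP3 probe (right) on each array, sorted within an array, with bars at the medians. Spots of an array lie close together, and for both genes all control spots lie above all PAK1 shRNA spots on this scale, on which the control arrays are brighter as a whole, while after normalization IGFBP3 differed by -0.33.

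IGFBP1, a product of liver that insulin suppresses, was well above background on 1 control array and 1 PAK1 shRNA array and was therefore not tested with the others. It had 6.34 and 6.34 in control and 6.69 and 6.24 in PAK1 shRNA cells, so the groups overlapped. With no filter on dim probes the log2 fold change was 0.13 (adjusted p = 0.53 from limma). A difference was not detectable at this signal.

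IGFBP7, a related secreted protein with low affinity for IGFs that also binds insulin, rose. The values were 14.99 and 14.92 in control and 16.69 and 16.82 in PAK1 shRNA cells, with little spread in either group. The means of 14.95 ± 0.05 (SD, n = 2) and 16.76 ± 0.09 (SD, n = 2) gave a log2 fold change of 1.80 (SE 0.08, limma adjusted p = 6.5e-06), or 3.49-fold. Scanned signals of 41636 and 32344 against 87940 and 99157 showed the same order, with no saturated spot. Leaving out each array in turn gave values between 1.74 and 1.89, and median centring with the background fitted on all spots gave 3.07.

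**Figure D3:**
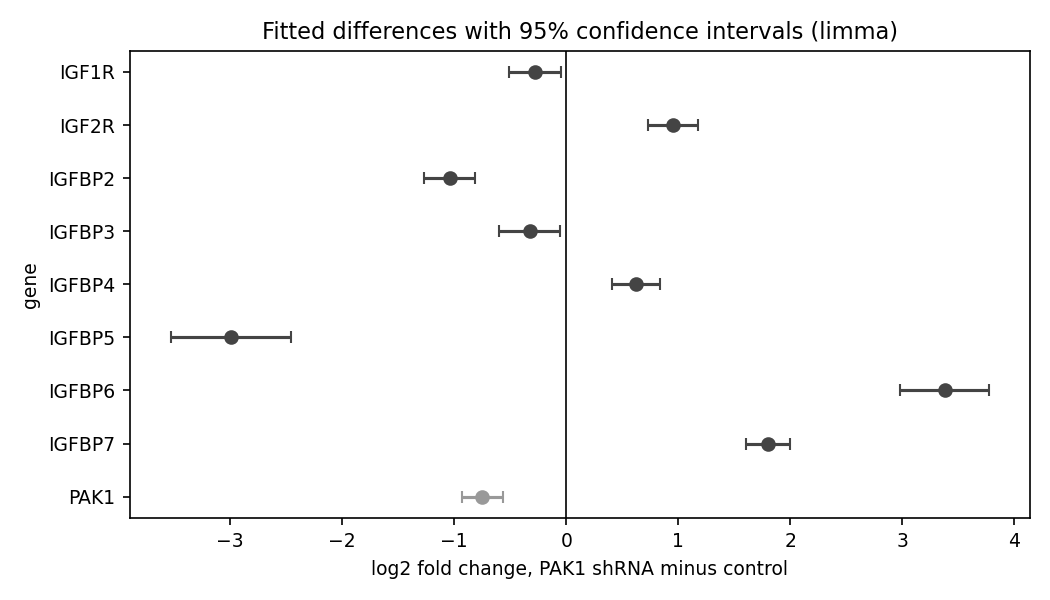
Fitted log2 fold change, PAK1 shRNA minus control, of the 8 tested members and of PAK1 (grey), with 95% confidence intervals from limma. IGFBP6 and IGFBP7 lie furthest to the right and IGFBP5, whose value is only a bound, furthest to the left, while the intervals of IGF1R and IGFBP3 end close to 0. The sign of IGF1R, IGFBP2, IGFBP3, IGFBP4 and PAK1 turned under median centring with the background fitted on all spots.

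**Figure D4:**
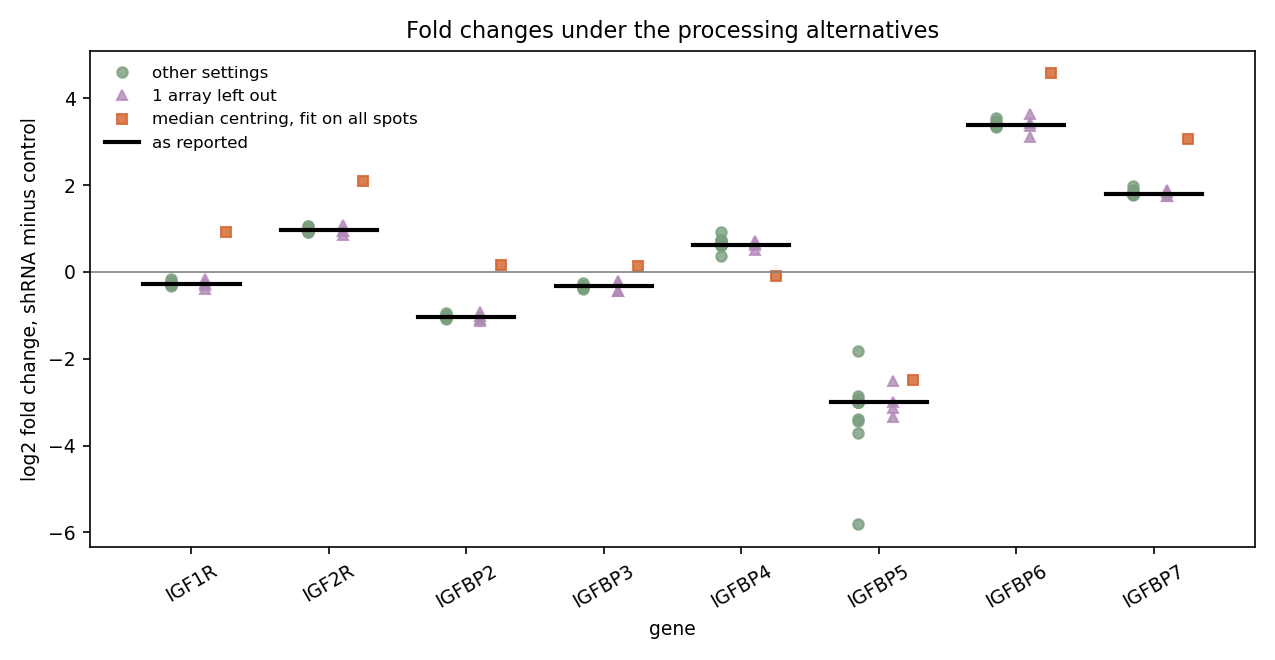
Log2 fold change (vertical axis) of each tested member as reported (black bars), under the other planned settings (circles), with 1 array left out (triangles) and under median centring with the background fitted on all spots (squares). IGF2R, IGFBP6, IGFBP7 and IGFBP5 kept their sign throughout, and the squares of IGF1R, IGFBP2, IGFBP3 and IGFBP4 crossed 0. IGFBP5, at background in PAK1 shRNA cells, varied from -5.82 to -1.82 under the planned settings.

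Promoters of the members with the largest rise and the deepest fall are given as sequence context, from RefSeq on GRCh38.p14, 250 bases before to 50 after the start. Of 9 members 7 had an entry, all but IGFBP1 and IGFBP7. Both strands were searched for TATAAA (the TATA box core), for GGGCGG (the core of the GC box that SP1 binds) and for CCAAT (the CCAAT box). Capitals mark a match, of which the IGFBP5 window had none. The windows are chr12:53097417-53097716 (plus strand) for IGFBP6 and chr2:216695500-216695799 (minus strand) for IGFBP5.
IGFBP6: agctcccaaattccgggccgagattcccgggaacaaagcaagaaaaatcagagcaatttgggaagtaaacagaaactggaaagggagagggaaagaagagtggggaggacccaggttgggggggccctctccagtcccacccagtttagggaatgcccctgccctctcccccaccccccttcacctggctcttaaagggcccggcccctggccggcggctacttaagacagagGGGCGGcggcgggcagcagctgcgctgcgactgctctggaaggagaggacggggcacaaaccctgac
IGFBP5: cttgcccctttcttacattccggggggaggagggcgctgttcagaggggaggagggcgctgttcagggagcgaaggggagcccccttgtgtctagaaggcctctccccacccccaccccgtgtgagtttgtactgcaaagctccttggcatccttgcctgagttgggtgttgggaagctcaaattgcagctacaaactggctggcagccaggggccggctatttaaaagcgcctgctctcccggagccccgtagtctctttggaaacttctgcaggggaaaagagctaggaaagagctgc
IGFBP6 held 1 GGGCGG, 17 bases before the start, in a window with 61.7% GC, while IGFBP5 had 59.0% GC. GGGCGG was found in 44.6% of 27305 promoters of the same length. IGF2R held 6 matches, IGF1R, IGFBP3 and IGFBP4 held 2 each and IGFBP2 held 1. Whether the number goes with the direction of change was not tested. TATAAA was found in 1 member, IGFBP4, 29 bases before the start, and in 12.0% of promoters. CCAAT, in 35.7% of promoters, was in none of the 7 windows. A match is a description of the window only.

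The genes around the members were taken from 6 lists: ligands and insulin receptors, proteases and their regulators, proteins related to the IGFBPs, IGF2 mRNA-binding proteins, receptor signalling and mannose 6-phosphate sorting. Of 68 genes 61 were tested, 32 higher, 15 lower and 14 not past the threshold, 77.0% called against 62.5% of all genes, with a median log2 fold change of 0.23 against 0.02. Among ligands, insulin receptors and the serum carrier, 5 of 6 were tested, 3 higher and 2 lower, where 30.9% of all genes were higher and 31.7% lower. IGF1 and IGF2 among them passed the filter through 1 group only, so the count of this list carries no weight of its own. The count over all 61 genes includes these 2 as well. IGF2, a ligand of IGF1R and IGF2R, had 6.59 and 6.47 in control, where 1 of 2 arrays was well above background, and 9.25 and 8.88 in PAK1 shRNA cells. This gave a log2 fold change of 2.53 (SE 0.13, limma adjusted p = 1e-05), or 5.79-fold. IGF2 passed the filter through the PAK1 shRNA arrays only, so this p carries no weight of its own. With control cells near background the size of the change is loose. Over the planned settings it ran from 1.52 with the background fitted on all spots to 4.43 with the processed signal scaled to the 75th percentile. The other IGF2 probe was too dim to test.

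The insulin receptor INSR, the closest relative of IGF1R, had 10.67 and 10.45 in control and 7.50 and 7.40 in PAK1 shRNA cells, each pair close together and the groups far apart on the 1 probe. The log2 fold change was -3.11 (SE 0.10, limma adjusted p = 1.7e-06), or 8.61-fold lower, next to -0.28 for IGF1R. For INSR it was -2.23 with the background fitted on all spots and -3.67 with the processed signal scaled to the 75th percentile. IGF1, the other ligand, was dim, with 6.57 and 6.52 in control and 6.33 and 6.24 in PAK1 shRNA cells, where it was not well above background on either array. By the bound it was 1.20-fold lower, but the bound moved between 0.963-fold, which is no fall, under median centring and 1.56-fold with the processed signal scaled to the 75th percentile. IGF1 passed the filter through the control arrays only, so its adjusted p (0.023, limma) carries no weight of its own. The call was lost in 5 of 17 planned settings, among them without the first control array (log2 fold change -0.22) and without PAK1 shRNA array 2 (-0.22). In 1 more, median centring, it was lost and the sign turned, to 0.0546 (limma adjusted p = 0.61). Adjusted p lay between 0.0082 and 0.61 over all 17.

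Of 7 tested proteases and regulators, 4 were higher, 1 lower and 2 not past the threshold, with a median of 0.54. That is 71.4% called, against 62.5% of all genes. PAPPA, the protease of IGFBP4, rose by 1.53 on the log2 scale (adjusted p = 1.3e-05 from limma), and TMEM219, a receptor for IGFBP3, by 1.87 (adjusted p = 6.1e-06 from limma). Of 6 tested IGFBP-related proteins, 3 were higher, 1 lower and 2 not past the threshold, so 66.7% were called, near the share of all genes. NOV (CCN3), a matricellular protein, rose by 1.53 (adjusted p = 1.9e-05 from limma). Of the 3 IGF2 mRNA-binding proteins 1 was higher and 2 were not past the threshold (33.3% called, against 62.5% of all genes).

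The receptor signalling list had 33 of 34 genes tested, 16 higher, 11 lower and 6 not past the threshold, with a median of 0.23. That is 81.8% called, against 62.5% of all genes (30.9% higher and 31.7% lower). GRB10, an adaptor that dampens IGF1R and INSR signalling, rose by 2.13 on the log2 scale (adjusted p = 1.5e-05 from limma), and by 2.72 on another probe. RICTOR, a subunit of mTORC2, was higher by 1.81, the PI3K subunit PIK3R3 by 1.50 and the adaptor SHC1 by 1.11 (adjusted p = 4.6e-06, 4.7e-05 and 2.5e-05 from limma). IRS2, a docking protein of both receptors, was higher by 1.11 (adjusted p = 2e-04 from limma). For IRS1, its relative, the probes disagreed, with 0.40 (adjusted p = 0.041 from limma) and -0.26. The IRS1 call was lost in 9 of 18 planned settings (adjusted p between 0.0056 and 0.62), among them without control array 1 (0.19, adjusted p = 0.15), without either PAK1 shRNA array and with the mean over probes (0.07), and its sign turned to -0.32 under median centring with the background fitted on all spots. EIF4EBP1, a translation repressor downstream of mTORC1, was lower, at -1.98 (adjusted p = 4.6e-06 from limma).

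IGF2R also works in mannose 6-phosphate sorting, and its partners there were read too. All 7 genes were tested, 5 higher and 2 not past the threshold (71.4% called, against 62.5% of all genes), with a median of 0.65. M6PR, the cation-dependent receptor that shares this task with IGF2R, was higher by 1.10 and GNPTG, a subunit of the enzyme that makes the mannose 6-phosphate tag, by 1.14 (adjusted p = 7.5e-05 and 4.9e-05 from limma).

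**Figure D5:**
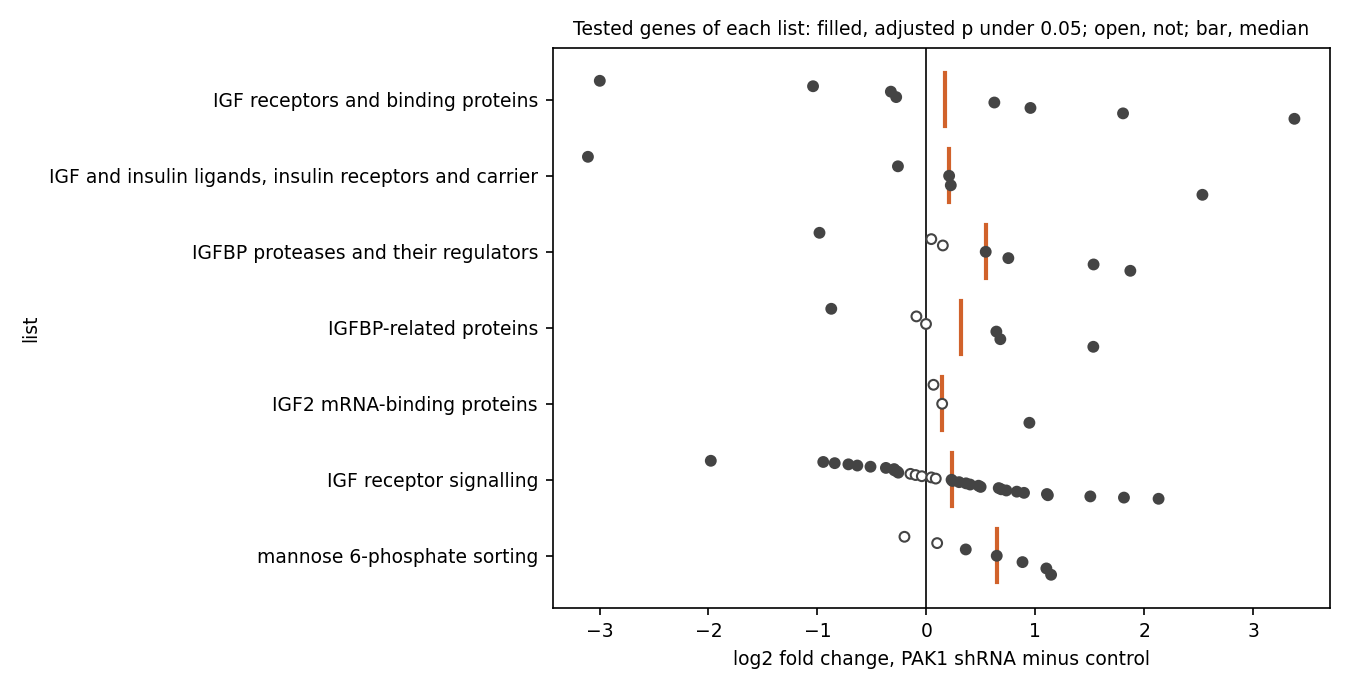
Log2 fold change, PAK1 shRNA minus control (horizontal axis), of the tested genes of each list, the members in the top row, with filled points for an adjusted p under 0.05 and orange bars at the medians. Members and ligands with insulin receptors spread from about the lowest to the highest values shown. They run from IGFBP5 (a bound) and INSR on the left to IGFBP6 and IGF2 (near background in control cells) on the right. Of the 7 sorting genes 5 lie higher past the threshold, where 30.9% of all genes tested were higher. Signs of IGF1, IGF1R, IGFBP2, IGFBP3, IGFBP4 and IRS1 turned under a form of median centring.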

How the data were processed

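RNA of 2 control and 2 PAK1 shRNA samples (0.5 μg each) was labelled with Cy3 and hybridized to 1-colour Agilent whole genome arrays. Samples were grouped by title. The authors deposited spot intensities (mean signal and local background) written by Agilent Feature Extraction 9.5.3.1, not normalized between arrays. They also deposited log2 values of the same arrays, which served as an alternative (correlation with the values here at least 0.999, medians 9.37, 9.37, 9.35 and 9.35). Probe coordinates are those of the files (hg19).

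Intensities were background corrected with normexp (offset 50), fitted without spots of flagged background. Fitted without them, the mean of the background was -9.19 and -12.1 for control and -10.4 and -9.78 for PAK1 shRNA, against -666, -740, -10.7 and -10.2 when all spots were fitted. Control spots were dropped, arrays were quantile normalized, flagged spots left out and spots of a probe averaged. A probe had to be well above background on 2 arrays of a group, and each gene was represented by its brightest probe. Genes were tested with limma 3.58.1 in R 4.3.3 (lmFit, eBayes), with Benjamini-Hochberg adjustment over all genes and a threshold of 0.05. The methods name normexp, quantile normalization and limma, but neither the offset nor a filter. Precision is limited by the number of arrays.

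The members and lists were chosen with earlier results of these data known. Named were all members, genes of the other lists past the threshold and at least 2-fold changed (up to 4 per direction and list), and IGF1, IGF2, INSR, IRS1 and IRS2. Marker genes were named by the same size rule or after their values were seen. Alternatives left out each array or changed the background, normalization, filter, flags, probe rule, test, value table or replicate block. Mouse arrays were not analysed here.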

Additional observations from a re-analysis of the deposited data

How the results depend on the processing

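Under 18 planned settings IGF2R, IGFBP2, IGFBP6 and IGFBP7 kept their direction and their side of the threshold. IGFBP5 did so too in the 17 that measured it. It passed the main filter through the control arrays only, so its calls carry no weight of their own, and the filter on all 4 arrays left it out. The counts of members higher (4) and of other IGF pathway genes stayed within 1.5 times the main counts. Members lower fell from 4 to 2, losing IGF1R and IGFBP3, with a normexp offset of 16, the processed signal scaled to the 75th percentile, no filter and the methods' t-test, which they name for the study in general and not for the arrays, with and without adjustment. With that test, adjusted, the call of IGFBP4 was lost, and 4157 genes were higher and 4484 lower, against 6787 and 6964. Leaving out each array in turn gave 5709 to 6298 genes higher and 5946 to 6460 lower, 4 to 4 members higher and 2 to 4 lower, and 27 to 29 other pathway genes higher and 11 to 13 lower. Median centring turned IGF1 to 0.0546.

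Median centring with the background fitted on all spots, chosen after seeing the data, left 1 member lower and turned IGF1R to 0.91, IGFBP2 to 0.15, IGFBP3 to 0.13, IGFBP4 to -0.0895, PAK1 to 0.16, IRS1 to -0.32 and KRT5 to 0.12 (log2 fold changes). The cause was not tested. That fit took a background mean of -666 and -740 on the control arrays and of -10.7 and -10.2 on the PAK1 shRNA arrays. Local background was above 100 on 8 and 18 spots of the control arrays and on 0 spots of either PAK1 shRNA array. The median of all genes moved to 0.12 with the 75th percentile and to 0.14 with either median centring.

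A replicate block gave 6965 genes higher and 7032 lower, and 4 members each way. Same-numbered arrays did not deviate together (r = 0.011 over 26303 probes), so a shared number was not taken as a pairing. The slide as a block could not be fitted, since there was 1 slide. Signal over background limits IGFBP1, IGFBP5, IGF1 and control IGF2.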
